A study of Homo sapiens with 9 samples.

Results

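DNA:RNA hybrid coverage was described at 30 genes that were listed as holding cryptic exons repressed by TDP-43. Splicing was not measured here, so that listing was not checked. The genes were listed by name, and each window was the RefSeq GRCh38 gene span plus 1 kb on either side. They are 30 of 19974 protein-coding genes on chromosomes 1 to 22 and X. All 30 were found, and 28 passed the minimum of 500 bp of mean peak coverage that was set for testing, as did 12810 of all coding genes. The other two, ADCY8 (an adenylyl cyclase) and SLC24A3 (a potassium-dependent sodium/calcium exchanger), held no peak in any of the 8 libraries. The files measure hybrids and not transcripts, so nothing below is a level of expression.

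The cells were SH-SY5Y, an established human neuroblastoma line, carrying a lentiviral hairpin that was either a control (shNC) or directed at TDP-43 (shTDP43). The control line shares the vector and the drug selection: 2 weeks of puromycin (2 µg/mL), then 1 µg/mL throughout. Each hairpin had 3 untreated libraries and 1 library whose nucleic acids were digested with RNase H for 6 hours before capture with the S9.6 antibody. The labels do not say whether replicates came from separate transductions, so the p-values below measure only the spread between these libraries, which may be technical. The input library is not analysed here.

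TDP-43 is a nuclear RNA-binding protein that binds UG-rich stretches of introns and represses nearby cryptic splice sites. When it is lost, as in affected neurons of amyotrophic lateral sclerosis and frontotemporal dementia, these exons enter the transcripts and often introduce a stop codon or an early polyadenylation site. R-loops form where nascent RNA pairs with its template DNA behind the polymerase, most often over GC-rich starts and over the ends of genes, and RNA-binding proteins that package the transcript limit them. DRIP-seq captures such hybrids on restriction fragments, so a peak cannot be placed more finely than the fragment that carried it. Cryptic exons themselves were not placed here.

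The untreated libraries held 57277 to 73456 peaks covering 91.6 to 142 Mb, and the fewest peaks and the shortest coverage were both in shTDP43 replicate 1. After RNase H, 15580 peaks (10.5 Mb) remained for shNC and 8916 (5.66 Mb) for shTDP43. Read totals are not given in the files. A rough guide to relative depth is the lowest background pileup solved from the fold and p of each library's peak summits. It was 2.01, 1.93 and 1.62 in shNC and 1.05, 1.68 and 1.94 in shTDP43. After RNase H it was 0.936 for shNC and 0.991 for shTDP43. Of 10 adrenergic neuroblastoma markers, 9 had a peak in all 6 untreated libraries, with a summed coverage of 119 to 130 kb. Of 7 mesenchymal neuroblastoma markers, 4 had one in all 6. None of 3 markers of kidney 293T cells, which packaged the virus, had a peak. Covered lengths are given unscaled for each library. Fold changes are log2 differences, shTDP43 minus shNC, after scaling each library to the median total coverage and adding 100 bp.

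Start sites of 24 of the 30 genes could be matched to RefSeq promoter sequences of GRCh38.p14, giving 35 windows of 250 bases before and 50 after a start. Of these, 5 are printed to show what sequence lay under, or outside, the peaks: ICA1 and G3BP1 were covered over all 300 bases in each of the 6 untreated libraries, IGLON5 and CEP72 had no covered base in any of the 8, and CAMK2B had 48 covered bases, in shNC replicate 1 only, all of them after the start. They were picked after the coverage was seen. Only the 250 bases before the start are shown, 5′ to 3′ on the gene's strand. Capitals mark GTGTGT, the DNA form of a TDP-43-type repeat, and GGGGG, a G run of the kind that stabilises hybrids, with both searched on both strands, so a G run of the opposite strand reads CCCCC.
ICA1, chr7:8262168-8262417, minus strand: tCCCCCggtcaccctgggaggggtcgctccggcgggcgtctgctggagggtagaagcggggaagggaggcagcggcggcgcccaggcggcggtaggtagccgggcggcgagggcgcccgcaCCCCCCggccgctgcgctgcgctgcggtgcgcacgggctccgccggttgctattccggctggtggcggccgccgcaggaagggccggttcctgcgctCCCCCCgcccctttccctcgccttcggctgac
G3BP1, chr5:151771704-151771953, plus strand: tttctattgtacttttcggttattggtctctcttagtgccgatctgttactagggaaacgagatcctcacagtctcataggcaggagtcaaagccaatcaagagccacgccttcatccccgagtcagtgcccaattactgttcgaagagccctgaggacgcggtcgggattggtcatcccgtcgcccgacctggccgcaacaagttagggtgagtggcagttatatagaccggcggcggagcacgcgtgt
IGLON5, chr19:51311394-51311643, plus strand: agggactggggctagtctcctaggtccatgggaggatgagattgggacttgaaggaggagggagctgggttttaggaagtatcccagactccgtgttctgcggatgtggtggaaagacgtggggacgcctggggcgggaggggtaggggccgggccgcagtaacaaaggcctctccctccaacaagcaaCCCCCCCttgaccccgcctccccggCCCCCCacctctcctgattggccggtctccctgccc
CEP72, chr5:612090-612339, plus strand: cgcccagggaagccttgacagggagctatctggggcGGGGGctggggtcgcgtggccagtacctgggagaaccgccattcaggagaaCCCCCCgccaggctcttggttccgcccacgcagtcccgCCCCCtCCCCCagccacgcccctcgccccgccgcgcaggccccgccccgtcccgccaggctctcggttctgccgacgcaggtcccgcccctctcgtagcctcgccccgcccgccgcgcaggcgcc
CAMK2B, chr7:44325595-44325844, minus strand: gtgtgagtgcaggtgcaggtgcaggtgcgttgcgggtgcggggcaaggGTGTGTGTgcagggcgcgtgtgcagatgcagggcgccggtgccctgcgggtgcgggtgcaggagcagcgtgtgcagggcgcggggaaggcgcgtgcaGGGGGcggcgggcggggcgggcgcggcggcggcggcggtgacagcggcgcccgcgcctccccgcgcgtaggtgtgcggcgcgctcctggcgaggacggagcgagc
GC content did not order the 5 by coverage. The covered ICA1 stretch has a GC content of 78.0% and the covered G3BP1 stretch one of 54.0%, while the uncovered IGLON5 and CEP72 stretches have 64.4% and 76.4%. The CAMK2B stretch, which has no covered base before the start in any untreated library, has 78.4%. GTGTGT occurs in the 300-base windows of both CAMK2B and the fully covered G3BP1, where it reaches into the bases after the start that are not printed. Over all 35 windows of 300 bases, GTGTGT was found on either strand in 5 (14.3%), against 12.5% of 22132 coding starts, and GGGGG in 25 (71.4%), against 65.5%. Peaks touched 14 of the 35 windows (40%) in all 6 untreated libraries, against 37.8% of coding starts, and no untreated library had a covered base in 7 (20%), against 43.1%. A match of letters is a description and shows no binding.

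Between them, the 28 tested genes ran from almost bare to almost fully covered. In shNC, the chromatin-remodelling subunit ACTL6B was covered over 93.4% ± 3.47 of its window (SD, n = 3), RANBP1, a regulator of the nuclear transport GTPase Ran, over 86.0% ± 6.52, and ELAVL3, a neuronal RNA-binding protein, over 85.9% ± 0.97. At the other end stood ARHGAP32 with 1.11% ± 0.14, EPB41L4A, a FERM-domain protein, with 2.42% ± 0.04, and KALRN with 3.26% ± 0.55. Across the 28 the median was 35.8% in shNC and 31.8% in shTDP43, beside 24.2% and 20.4% for all tested genes. The listed genes are also longer, with a median span of 72.8 kb against 24.2 kb for coding genes. For 25 of the 28, the lowest coverage of the 6 untreated libraries was in shTDP43 replicate 1.

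**Figure D1:**
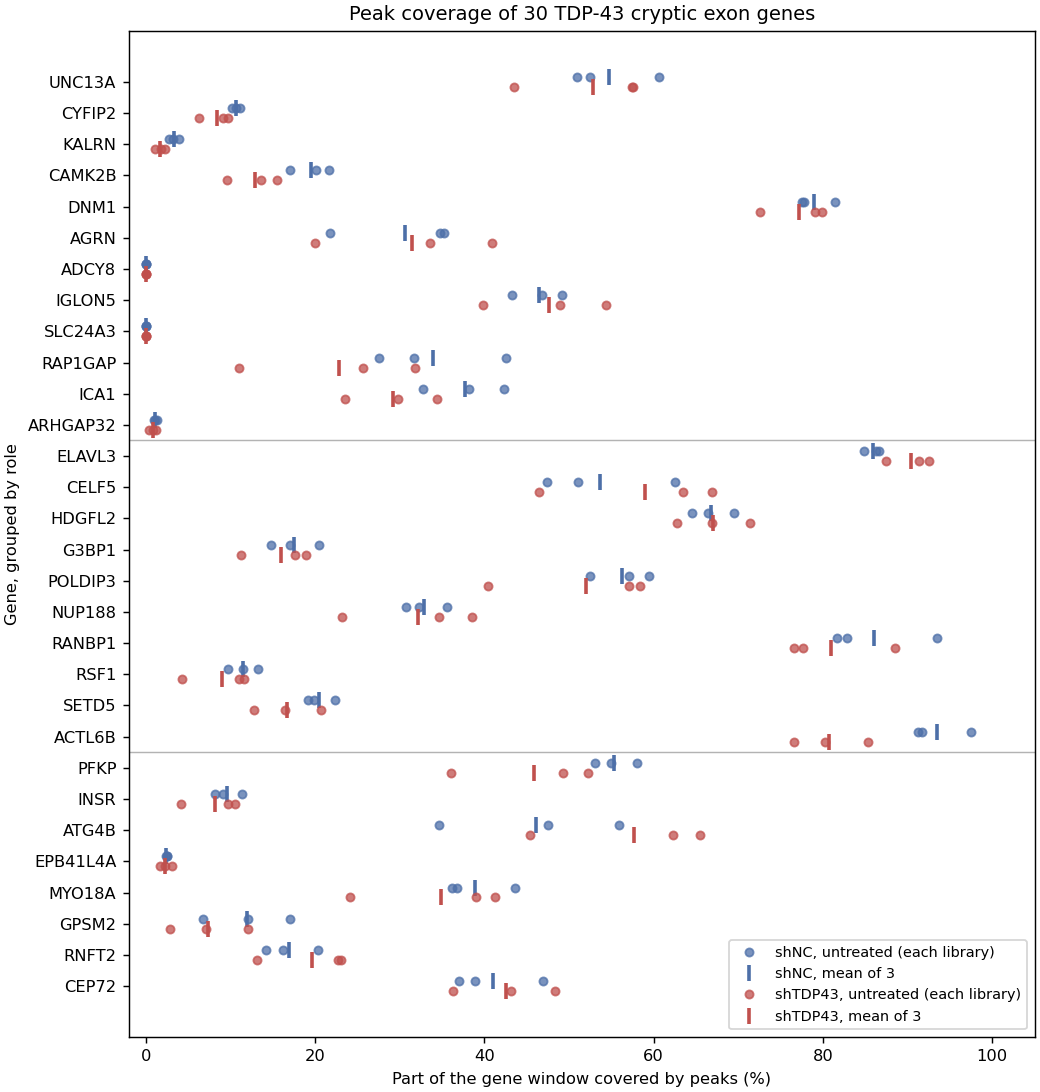
Percent of each gene's window covered by peaks (x axis) for the 30 genes (y axis), grouped by role with grey lines between groups. Dots are single untreated libraries and vertical ticks are means of 3; the widest cover is in ACTL6B, RANBP1 and ELAVL3, and ADCY8 and SLC24A3 sit at 0.

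Windows of 13 of the 30 genes overlap another coding gene, and the assay as labelled has no strand, so their coverage cannot be assigned to one gene. RANBP1 is the extreme case. Its whole window lies in one merged region of 65.7 kb at chr22:20096718-20162443 that was present in all 6 untreated libraries and also takes in TRMT2A. HDGFL2, a histone-binding protein, lies partly in a merged region of 43.9 kb that runs on past its window, which also touches PLIN4. ELAVL3, whose window touches PRKCSH, has 2 such regions, the longer of 40.4 kb, and DNM1, the dynamin of synaptic vesicle retrieval, has 1 of 36.4 kb.

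No gene of the 28 changed with the TDP-43 hairpin at an adjusted p under 0.05, in limma with Benjamini-Hochberg adjustment over all tested genes. Among all 12810 genes, 22 had more coverage in shTDP43 (0.172%) and 96 had less (0.749%). At an unadjusted p under 0.05 there were 6 of the 28, 4 with more and 2 with less coverage, beside 1474 of the 12810 (11.5%), of which 490 (3.83%) had more and 984 (7.68%) had less. Estimates were positive for 16 genes and negative for 12, with a median of 0.05, and the median of all tested genes was also 0.05. Scaling alone moved estimates upwards where covered length stayed the same. GATA2, an adrenergic marker, had 15.8 kb in all 6 untreated libraries and an estimate of 0.19. A positive estimate near that value therefore need not mean more covered bases. Summed over the list, coverage was 711, 611 and 592 kb in shNC and 445, 635 and 647 kb in shTDP43. As a share of each library's total that is 0.501%, 0.470% and 0.472% against 0.486%, 0.495% and 0.494%, and these ranges overlap.

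**Figure D2:**
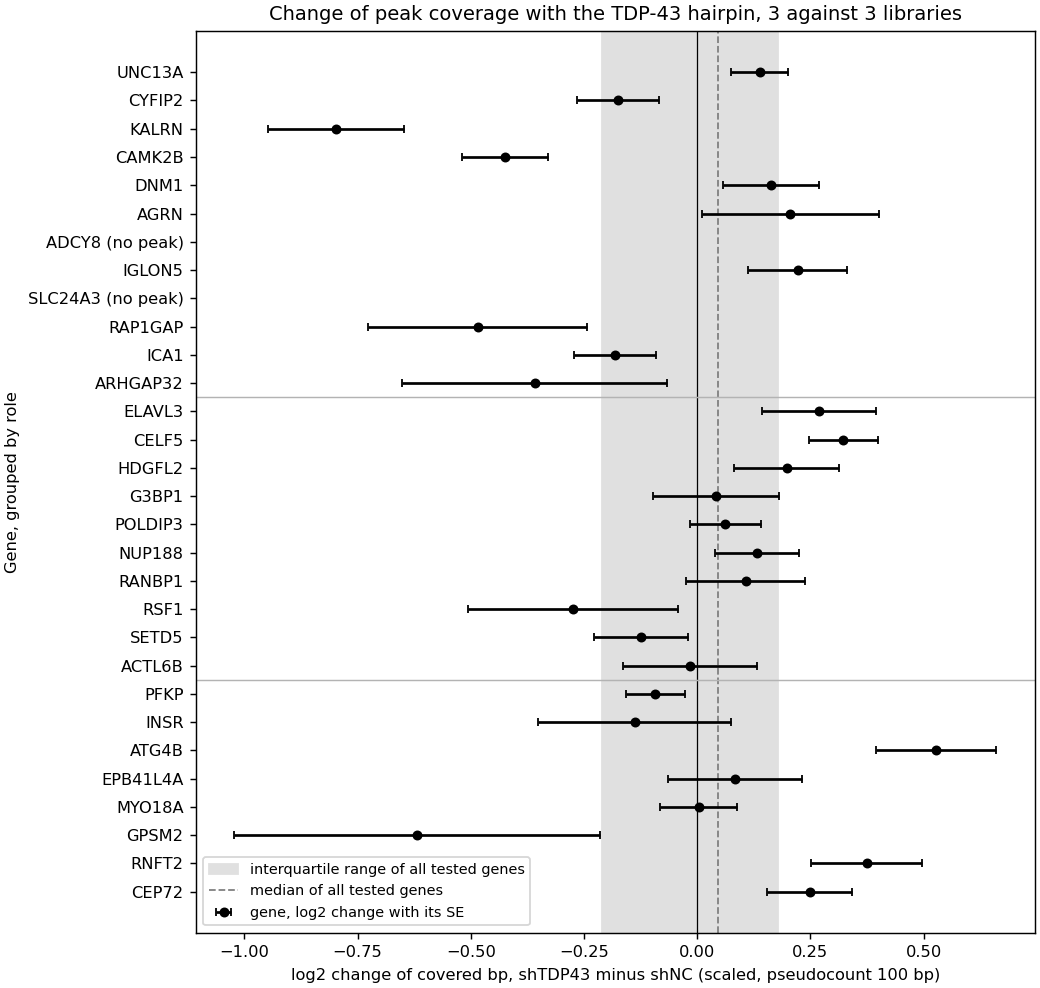
Log2 change of covered length, shTDP43 minus shNC (x axis), with its standard error for each of the 28 tested genes (y axis, grouped by role). The grey band spans the interquartile range of all tested genes and the dashed line their median of 0.05; KALRN lies lowest at -0.80 and ATG4B highest at 0.53.

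Of 12 genes of neuronal and synaptic signalling, 10 were tested and none was called, 4 with positive and 6 with negative estimates around a median of -0.18. KALRN (chr3:124033369-124726325), which shapes dendritic spines, was covered over 26.7, 22.1 and 19.1 kb in shNC and over 7.34, 12.6 and 15.4 kb in shTDP43. All shTDP43 values lie below all shNC values. The log2 change was -0.80 ± 0.15 (SE) with an adjusted p of 0.0603, just outside the threshold. Leaving out shTDP43 replicate 3 moved the adjusted p to 0.0307, centring the libraries on their median moved it to 0.0484, and a pseudocount of 1000 bp moved it to 0.0353. Over all alternatives it ran from 0.0307 to 0.593.

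CAMK2B (chr7:44217154-44326013), the beta subunit of the synaptic kinase CaMKII, had 24.0, 22.2 and 18.8 kb in shNC against 10.7, 15.1 and 17.1 kb in shTDP43. Here too the groups do not overlap. The change was -0.42 ± 0.10 with an adjusted p of 0.105, which became 0.0347 when every untreated library was cut to the same number of strongest peaks and ran from 0.00655 to 0.643 over all alternatives. CYFIP2 (chr5:157266123-157395594), part of the actin-regulating WAVE complex, had 14.6, 14.0 and 13.4 kb against 8.20, 12.0 and 12.8 kb. These do not overlap either, and after scaling the change was -0.17 ± 0.09 with an adjusted p of 0.527.

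UNC13A (chr19:17601336-17688354), which primes synaptic vesicles and whose cryptic exon is among the best known, had 53.9, 46.7 and 45.4 kb in shNC and 38.7, 51.1 and 51.3 kb in shTDP43. Replicate 1 of shTDP43 lies below the shNC range and the other two within it. Its log2 change was 0.14 ± 0.06, adjusted p 0.458. Without scaling the estimate was -0.06, so its direction turned with that choice.

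ICA1 (chr7:8113184-8262555), a protein of dense-core and synaptic vesicles, was the gene with the most covered kilobases in shNC, 64.0, 49.5 and 57.9 kb, against 35.6, 45.1 and 52.1 kb. The ranges overlap and the change was -0.18 ± 0.09 (adjusted p 0.501). RAP1GAP (chr1:21596221-21669357), which switches off the GTPase Rap1, ranged more widely. It had 31.9, 23.8 and 20.7 kb in shNC and 8.26, 19.3 and 23.9 kb in shTDP43. Its estimate of -0.48 carries an SE of 0.24 and an adjusted p of 0.504. ARHGAP32 (chr11:128965060-129279632) had 3.17, 4.02 and 3.35 kb against 1.24, 2.73 and 3.87 kb, overlapping, and an estimate of -0.36 ± 0.29 (adjusted p 0.634). DNM1, IGLON5 (a neuronal cell adhesion molecule) and AGRN (the organiser of the neuromuscular synapse) had estimates of 0.16, 0.22 and 0.20, with adjusted p from 0.501 to 0.639.

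All 10 genes of RNA binding, nuclear transport and chromatin were tested, and none was called. Estimates were positive for 7 and negative for 3, with a median of 0.08. CELF5 (chr19:3224661-3297076), a splicing regulator, had 46.5, 38.0 and 35.3 kb in shNC and 34.6, 49.8 and 47.3 kb in shTDP43. Replicates 2 and 3 of shTDP43 exceed every shNC library and replicate 1 lies below them all, so the groups overlap before scaling. After scaling the change was 0.32 ± 0.08 with an adjusted p of 0.123.

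ELAVL3 (chr19:11451326-11481046) had 27.4, 26.9 and 27.5 kb in shNC and 27.7, 29.3 and 29.0 kb in shTDP43. It is the one gene of the 28 whose unscaled values were all higher in shTDP43, a pattern found in 102 tested genes (0.796%). The change was 0.27 ± 0.13 (adjusted p 0.474). ACTL6B (chr7:100643097-100656448) showed the opposite order, with 15.0, 14.1 and 14.0 kb against 12.3, 13.1 and 11.8 kb, but scaling took its estimate to -0.02 ± 0.15. RANBP1 (chr22:20116104-20127355) had 12.4, 11.0 and 10.8 kb against 10.2, 10.3 and 11.7 kb, overlapping, with an estimate of 0.11 ± 0.13 (adjusted p 0.693).

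Before scaling, 5 of the 28 genes lay lower in every shTDP43 library than in every shNC library, namely KALRN, CAMK2B, CYFIP2, ACTL6B and PFKP, the platelet-type phosphofructokinase. That order was found in 1795 tested genes (14.0%), so the share among the listed genes is near the background. PFKP (chr10:3067548-3136805) had 41.3, 39.1 and 37.8 kb in shNC and 25.7, 37.2 and 35.1 kb in shTDP43, and its scaled estimate was -0.09 ± 0.06 (adjusted p 0.634).

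In the remaining group of metabolism, receptor signalling, autophagy, cytoskeleton and polarity, all 8 genes were tested, none was called, and 5 estimates were positive and 3 negative around a median of 0.04. ATG4B (chr2:241637693-241673857), the protease that processes autophagy proteins of the LC3 family, had 21.3, 18.1 and 13.2 kb in shNC and 17.3, 25.0 and 23.8 kb in shTDP43. Replicates 2 and 3 lie above every shNC library and replicate 1 within their range. The change of 0.53 ± 0.13 is the largest positive one of the list, with an adjusted p of 0.144. Its window touches THAP4.

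RNFT2 (chr12:116738315-116853631), a membrane RING-finger protein, had 23.9, 19.0 and 16.7 kb against 15.4, 27.0 and 26.6 kb and a change of 0.37 ± 0.12 (adjusted p 0.266). The pattern of libraries is the one seen in CELF5. CEP72 (chr5:612340-676616), a centrosomal protein, had 31.1, 25.8 and 24.5 kb against 24.1, 32.0 and 28.6 kb, overlapping, and a change of 0.25 ± 0.09 (adjusted p 0.353). EPB41L4A (chr5:112141829-112419935) stood at 6.84, 6.64 and 6.82 kb against 4.66, 6.20 and 8.51 kb, with shTDP43 values on both sides of a tight shNC range and an estimate of 0.08 ± 0.15 (adjusted p 0.783). The insulin receptor INSR, the myosin MYO18A and GPSM2, which orients the mitotic spindle, had estimates of -0.14, 0.00 and -0.62, and GPSM2, with an SE of 0.40, was the least precise of the 28.

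Position along the gene was read in 10 equal segments of the window, counted from the 5′ end for the 24 genes with a known strand. Coverage in these genes leaned to the 3′ end. In shNC the mean covered part was 33.9% ± 3.7 (SD over 3 libraries) in the first segment, 18.0% ± 3.2 in the second and 59.0% ± 1.3 in the last. Over 10481 tested genes with a strand the first segment was the fullest, at 47.7% ± 2.0, and the last held 40.5% ± 1.5. In shTDP43 the listed genes had 30.4% ± 7.1 in the first segment and 55.7% ± 4.5 in the last, so the 3′ end was the fuller one under both hairpins. These sets differ in gene length. Among spans over 50 kb in shNC, 18 listed genes held 26.3% in the first segment and 51.9% in the last. The 3664 tested genes of that length held 23.5% and 21.7%. At that length the listed genes were thus not lower in the first segment.

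**Figure D3:**
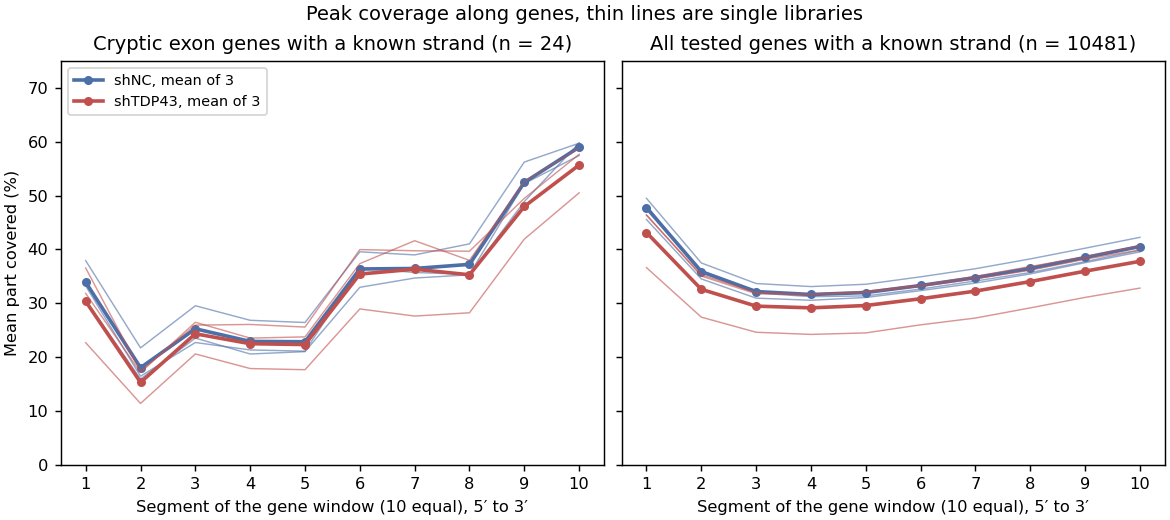
Mean percent covered (y axis) in each segment of the window from the 5′ to the 3′ end (x axis), for the 24 cryptic exon genes with a known strand (left) and the 10481 tested genes with one (right). Thick lines are means of 3 untreated libraries and thin lines single libraries; the left panel climbs to 59.0% in shNC while the right one starts at 47.7% and ends at 40.5%. The panels are not matched for gene length.

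Library by library, the last 3 segments held more covered length than the first 3 in 16 to 18 of the 24 genes. The share was 44.0% to 46.2% of tested genes with a known strand and any coverage in those segments. Restricted to spans over 50 kb, since the listed genes are long, the count was 13 of 18 in each of the 6 untreated libraries. Tested genes of that length, counted the same way, gave 42.2% to 44.4%. This measure was chosen after the profile was seen and has no test. Part of the 3′ cover lies in regions that run past the gene end, as in DNM1, NUP188 and CEP72, whose windows touch other coding genes. No count was made without such genes. In all 6 libraries 15 genes had more coverage at the 3′ side, 5 had more at the 5′ side (KALRN, POLDIP3, RSF1, CYFIP2 and ARHGAP32) and 4 were mixed. In shNC CAMK2B had a mean of 18.8 kb in the last 3 segments and 1.27 kb in the first 3, and MYO18A had 18.9 and 1.75 kb. SETD5, a SET-domain chromatin protein, had 12.2 and 2.59 kb, whereas POLDIP3, which links splicing to translation, had 4.12 and 8.82 kb.

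**Figure D4:**
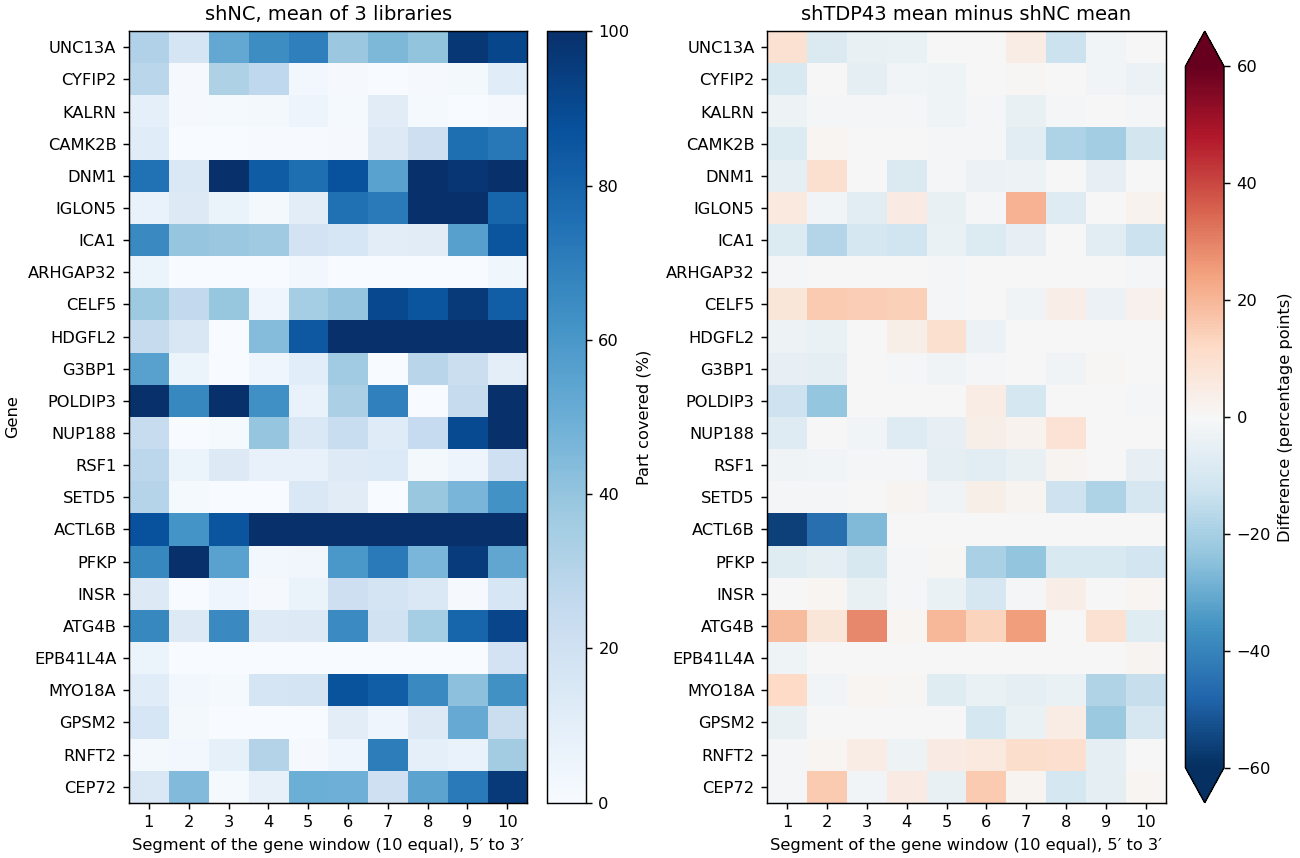
Left, mean percent covered in shNC in each segment of the window (x axis, 5′ to 3′) for the 24 genes with a known strand (y axis). Right, the shTDP43 mean minus the shNC mean in percentage points; the deepest blue cells are the first segments of ACTL6B, and no segment of a listed gene passed the test.

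No segment of a listed gene was called with all deposited peaks. Over all genes 57092 segments were tested, of which 1 had more coverage in shTDP43 (0.00175%) and 19 had less (0.0333%). The segments named next had the smallest p or the largest difference among the listed genes, and were picked after their values were seen. Segment 5 of KALRN had 3.16, 3.69 and 3.42 kb in shNC and 1.33, 1.57 and 1.81 kb in shTDP43. The change was -0.90 ± 0.14, with an adjusted p of 0.206. Over its alternatives that p ran from 0.00435 to 0.728, and it passed only without peaks that overlap an RNase H peak of the same hairpin. Segment 1 of MYO18A had 1.58, 0.975 and 1.24 kb against 2.61, 2.21 and 2.99 kb, a change of 1.19 ± 0.23 (adjusted p 0.305).

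In CAMK2B the segment with the smallest p was the eighth, where shNC had 3.00, 2.81 and 1.25 kb and shTDP43 had 0, 0 and 0.960 kb. The adjusted p was 0.550, and the fitted change is not given because it depends on the added 100 bp. ELAVL3 showed 1.49, 1.26 and 1.09 kb against 1.88, 2.16 and 1.83 kb in segment 8, counted in chromosome order, a change of 0.77 ± 0.17 (adjusted p 0.387). The largest difference in covered share was in segment 1 of ACTL6B, with 1.48, 1.48 and 1.05 kb against 0.310, 1.13 and 0 kb. Those groups overlap, since shTDP43 replicate 2 exceeded shNC replicate 3, and the adjusted p was 0.665.

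Peaks of the 6 untreated libraries merged into 469 regions at the listed genes, 125 of them present in all 6. Regions found in all 3 shNC libraries and no shTDP43 library numbered 2 (1003 of 85169 regions at coding genes, or 1.18%, had that pattern), and 1 showed the reverse (211, or 0.248%). The shNC regions were chr3:124412224-124413841 in KALRN and chr7:44249035-44250690 in CAMK2B. The first was covered over 1096, 803 and 496 bp in the shNC libraries and the second over 450, 1452 and 529 bp. The shTDP43 region was chr19:3248093-3248570 in CELF5, covered over 352, 374 and 478 bp. None of the 3 was touched by a peak after RNase H. With a −log10 q of at least 5, no region at the listed genes was found in shTDP43 only. In shNC only there were then 3 (1.28%, against 1.57% at coding genes). Counting a region as present only where a library covered at least 50% of it gave 2 of each pattern. That is 0.426% each, against 1.46% for shNC and 0.217% for shTDP43 at coding genes.

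The strongest summit inside a window, by the authors' fold enrichment, fell within 1 kb across all 6 untreated libraries in 5 of the 28 genes: UNC13A, PFKP, ELAVL3, IGLON5 and ARHGAP32. UNC13A was the tightest. Its summit stood at 17605121 or 17605122 on chromosome 19 in each of the 6, close to the 3′ end of the gene. The authors' fold there was 33.9, 41.7 and 32.8 in shNC and 25.4, 29.5 and 30.6 in shTDP43. Those folds do not overlap, but they depend on each library's depth, known only through the background pileup, and were not tested. The share of all genes with that order was not counted. In PFKP the folds were 38.8, 37.7 and 35.2 in shNC against 25.4, 33.4 and 40.7 in shTDP43, which overlap. Those of ELAVL3, IGLON5 and ARHGAP32 overlap as well. In PFKP and ARHGAP32 the fixed summit lay at the 5′ end, and in IGLON5 it lay just beyond the 3′ end, in the part of the window that touches VSIG10L. In KALRN the strongest summit differed by up to 448252 bp between libraries.

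RNase H degrades the RNA of a DNA:RNA hybrid, and little coverage was called after it. The treated shNC library had a peak in 21 of the 30 genes and the treated shTDP43 library in 13, beside 35.9% and 23.0% of tested genes and 27.2% and 17.5% of all coding genes, which are shorter. In 17 and 9 of these genes the treated peaks overlapped an untreated peak of the same hairpin. In the other 4 and 4 they lay apart from all untreated peaks of that hairpin. These were ARHGAP32, CAMK2B, INSR and RSF1 in shNC, and ARHGAP32, CAMK2B, EPB41L4A and KALRN in shTDP43. Untreated peaks of the other hairpin were touched in some. The treated shTDP43 peak in KALRN overlapped, by 109 bp, a region that untreated shNC replicate 1 covered in full (chr3:124343804-124344777). In INSR the treated shNC peak touched a region merged from untreated peaks. Summed over the list, the treated library held 5.44% of the mean untreated coverage for shNC and 2.11% for shTDP43, against 5.16% and 2.83% for tested genes. With 1 treated library per hairpin, these values have no replicate check. The treated libraries also had background pileups of 0.936 and 0.991, below the 1.05 to 2.01 of the untreated libraries. The percentages are therefore not matched for depth, and how far that lowered them was not tested.

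ELAVL3 had the most treated coverage, 6.15 kb in shNC and 2.77 kb in shTDP43, which is 22.6% and 9.7% of its untreated means. ACTL6B had 3.92 and 1.84 kb, or 27.3% and 14.9%. In both genes all of it lay under untreated peaks of the same hairpin. UNC13A had 2.69 and 0.642 kb, of which 2.65 and 0.642 kb lay under untreated peaks. EPB41L4A had 1.96 and 0.284 kb, of which 0.993 and 0 kb did. For CAMK2B the 1.17 kb in shNC and 1.46 kb in shTDP43, and for ARHGAP32 the 1.03 and 0.323 kb, lay wholly outside them. Of the treated coverage at the listed genes, 75.9% in shNC and 70.6% in shTDP43 lay under untreated peaks of the same hairpin, against 69.8% and 64.3% for coding genes.

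**Figure D5:**
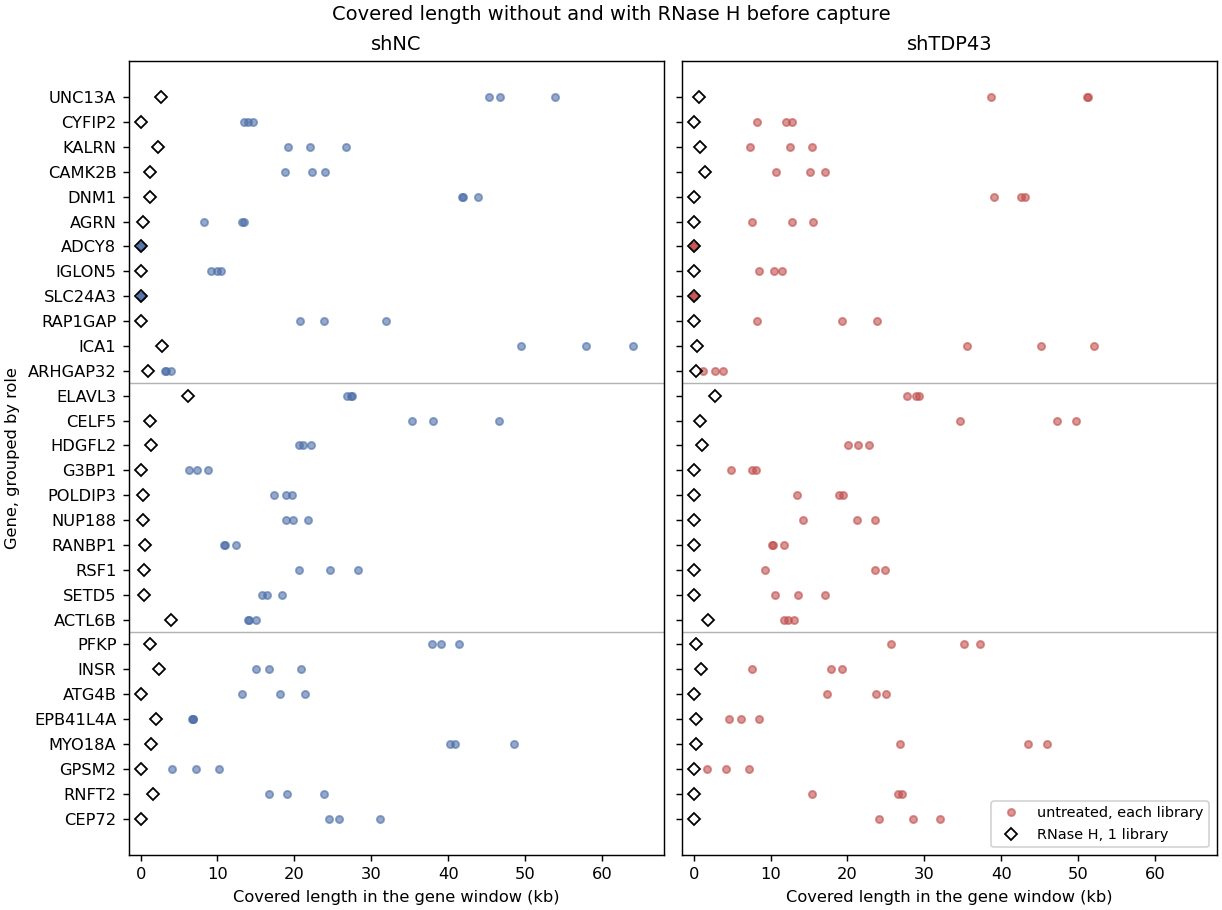
Covered length in kb (x axis) for the 30 genes (y axis) in shNC (left) and shTDP43 (right). Filled dots are single untreated libraries and open diamonds the 1 library treated with RNase H, which lies at or below 6.15 kb for every gene.

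Related gene sets were read the same way. Of 9 further cryptic exon genes, all tested, 2 had less coverage in shTDP43 and none more, around a median of -0.02. Among all 12810 tested genes, 96 (0.749%) had less and 22 (0.172%) had more. The list was chosen with earlier results of these data known, so these calls are not independent support. SYT7, a synaptic calcium sensor, went from 38.1, 36.6 and 35.9 kb to 13.6, 18.7 and 20.5 kb, a change of -0.89 ± 0.07 with an adjusted p of 0.00252. STMN2, a microtubule regulator of axons, went from 34.7, 26.1 and 32.2 kb to 10.5, 16.8 and 19.2 kb, a change of -0.84 ± 0.13 with an adjusted p of 0.0261. In both, every unscaled shTDP43 value lies below every shNC value, an order found in 14.0% of tested genes.

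Among 11 RNA-binding proteins that repress exons, all tested, none was called. The median was 0.16, near the 0.19 that scaling alone gave GATA2. TARDBP, which encodes TDP-43, had 14.2, 10.3 and 12.7 kb in shNC and 6.82, 9.87 and 10.2 kb in shTDP43, with a change of -0.28 ± 0.12 (adjusted p 0.443). Its lowest shNC value and highest shTDP43 value nearly touch, and hybrid coverage does not measure the knockdown of its mRNA. Of 10 genes of nonsense-mediated decay, which clears many transcripts with cryptic exons, 9 were tested, none was called, and the median was 0.10.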

How the data were processed

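DRIP-seq libraries of SH-SY5Y cells were deposited by the authors as one narrowPeak list per library. Tools named in the submitters' processing notes are MACS2 2.2.6, Bowtie2 2.4.4 and SAMtools, with build hg38. Which control served in peak calling was not stated in labels or headers. In the deposited lists, each peak carries a fold enrichment (a ratio), −log10 p and −log10 q values, and a score that is about 10 times the −log10 q, per the values in the files. Replicates were not pooled. Counts of reads are not part of the lists. Count models therefore do not apply, depth is known only through the background pileup, and coverage grows with how much was called in a library.

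From these lists, overlapping or touching peaks were merged per library, and the covered bp of each RefSeq gene span plus 1 kb per side was scaled to the median library total and taken as log2(bp + 100 bp). Genes with a mean of at least 500 unscaled bp were tested, 3 shNC against 3 shTDP43 libraries, two-sided, with limma 3.58.1 (lmFit, eBayes with trend) in R 4.3.3, Benjamini-Hochberg adjusted over all genes, and called at an adjusted p under 0.05. Windows were also cut in 10 equal segments, tested together, and merged regions counted from 1 bp of overlap. RNase H libraries, 1 per hairpin, entered no test. The fit was also run on simulated normal values with a single spread for all genes. Those values lack the zeros and fully covered windows of these data, so that run says little about the test here. Labels give no batch.

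The genes, lists and tests were chosen with earlier results of these data known. Per-library values are given for the 5 genes with the smallest p in each direction, the 3 widest and 3 narrowest covered, UNC13A, and genes holding a region present in one hairpin only. Of the other lists, genes that passed the test and TARDBP are named. Alternatives covered scaling, pseudocount, filter, peak strength and number, RNase H peaks, flanks, variance trend, replicate block and single libraries.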

Additional observations from a re-analysis of the deposited data

How the results depend on the processing

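Across 476 comparisons of the 28 tested genes with alternative settings, 431 kept direction and side of the threshold, 33 changed sign and 12 passed it, and 15 genes never changed sign. Where a call or sign changed, the cause was not tested. Without scaling, estimates turned negative for UNC13A (-0.057), G3BP1 (-0.15), POLDIP3 (-0.13), EPB41L4A (-0.11), MYO18A (-0.19), DNM1 (-0.033), NUP188 (-0.063) and RANBP1 (-0.087), while the median of all genes moved from 0.05 to -0.15. With a −log10 q of at least 5, G3BP1 (-0.21), MYO18A (-0.011), CYFIP2 (0.34) and segment 1 of MYO18A (-0.035) turned. With equal peak numbers INSR (0.0030) and ARHGAP32 (0.10) turned, and CAMK2B (-0.50) passed at an adjusted p of 0.0347. Without flanks G3BP1 (-0.0060), MYO18A (-0.00024) and ACTL6B (0.044) turned.

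Without peaks that overlap an RNase H peak of the same hairpin, G3BP1 (-0.12) and MYO18A (-0.073) turned, and 8 genes passed, ELAVL3 (1.76), CELF5 (0.49), DNM1 (1.63), NUP188 (0.63) and RANBP1 (2.51) upwards and KALRN (-0.65), CAMK2B (-0.59) and CYFIP2 (-0.34) downwards, as did segment 5 of KALRN (-1.06, adjusted p 0.00435). By construction that setting removes more from shNC (5.71% to 7.29% of peaks) than from shTDP43 (3.75% to 4.24%). Removing peaks of either hairpin's RNase H library, an alternative chosen after seeing the data, took 6.31% to 7.96% and 6.81% to 7.68%, no listed gene passed, and EPB41L4A (-0.83), MYO18A (-0.17) and NUP188 (-0.13) turned.

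Leaving out one library in turn gave -0.31 to 0.13 for INSR, -0.055 to 0.11 for G3BP1, -0.044 to 0.17 for EPB41L4A, -0.43 to 0.020 for RSF1, -0.048 to 0.081 for MYO18A, -0.18 to 0.11 for ACTL6B, -0.022 to 0.21 for RANBP1, and -0.93 to -0.66 for KALRN, which passed without shTDP43 replicate 3. Without changing sign, estimates ran from -0.70 to -0.19 for RAP1GAP, -0.99 to -0.24 for GPSM2, -0.62 to -0.076 for ARHGAP32, 0.13 to 0.35 for ELAVL3, 0.077 to 0.29 for HDGFL2 and 0.039 to 0.23 for DNM1, each nearest to 0 without shTDP43 replicate 1. They ran from 0.017 (without shNC replicate 3) to 0.33 for AGRN and, nearest to 0 without shTDP43 replicate 2, from 0.061 to 0.18 for NUP188 and from -0.20 to -0.053 for SETD5.

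Counts over all genes moved with the settings. Genes with more and with less coverage, 22 and 96, became 1 and 19 without scaling, 40 and 191 with 1000 bp added, 3 and 30 with −log10 q of at least 5, 1070 and 669 under the same-hairpin RNase H setting, 26 and 52 under the either-hairpin one, and 14 and 61 without a variance trend. More-covered genes became 44 with equal peak numbers. Leave-one-out gave 6 to 57 and 12 to 166. Segments, 1 and 19, became 13 and 113 without scaling, 16 and 139 with 1000 bp added, 16 and 113 without the filter, 4 and 71 with −log10 q of at least 5, 6 and 47 with equal peak numbers, 3757 and 1212, and 37 and 29, under the RNase H settings, 10 and 121 without a trend, and 0 to 5 and 2 to 90 leaving out one library. Regions found in shTDP43 only fell to 29 at −log10 q of at least 5.

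After each group's mean was subtracted per gene, the deviations of same-numbered libraries correlated at -0.17, 0.06 and -0.17. Differently numbered pairs ran from -0.18 to 0.23. These are not correlations of coverage itself. With 3 libraries per group they cannot tell whether same-numbered libraries share a batch. The replicate block gave 9 and 65 genes and 0 and 5 segments, and called no listed gene. Peak lists without read counts limit all comparisons, because wider calling and more hybrid cannot be told apart, and shTDP43 replicate 1, the library with the least coverage, lowers most unscaled values.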
